A study of Mus musculus with 13 samples.

Results

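To examine how the midbrain responds to a dopaminergic toxin when astrocytes lack Ripk3, RNA-Seq libraries of 4 Ripk3fl/fl Aldh1l1Cre+ mice (Cre+) that received tamoxifen and MPTP were compared with those of 3 Cre+ mice that received tamoxifen and Saline. These 7 libraries are all Cre+ libraries among the 13 of the series, and their members were taken from the genotype and treatment of the labels, not from any measured value. Every mouse of the series carried Ripk3 alleles flanked by loxP sites and received 60 mg/kg tamoxifen daily for 5 days, at least 1 week before the toxin. MPTP was given at 20 mg/kg once per day for 5 days, and tissue was taken 3 days after the last dose from male mice of a C57BL/6J background aged 8 to 12 weeks. The Aldh1l1 promoter drives a tamoxifen-activated Cre recombinase in astrocytes, so that Ripk3 is removed there and kept in other cells. The other 6 mice were Cre- littermates, 3 with MPTP and 3 with Saline, which keep Ripk3 in astrocytes. Each library came from the whole midbrain of 1 mouse, so fewer cells of a type and less RNA per cell cannot be told apart in these values.

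RIPK3 is a kinase that, once activated by death receptors, Toll-like receptors or the nucleic acid sensor ZBP1, can trigger necroptosis through MLKL and can also drive inflammatory transcription without cell death. MPTP is converted by glia into a toxin that enters dopaminergic neurons through the dopamine transporter and blocks mitochondrial complex I. Glia answer such an injury with several transcriptional programs, among them an interferon program of antiviral and antigen presentation genes, an acute-phase program led by Lcn2, and the loss of homeostatic microglial genes.

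The 7 Cre+ libraries held 17713289 to 26533123 counts assigned to genes, and 25432 to 27186 genes had at least 1 count. Levels are given as CPM, a gene's count scaled to the library total after TMM adjustment over these 7 libraries, always in the order of mouse 1 to 4 for Cre+ MPTP and mouse 1 to 3 for Cre+ Saline. Fold changes are log2 ratios of Cre+ MPTP over Cre+ Saline from edgeR. Ripk3 (ENSMUSG00000022221, chromosome 14, 55784996 to 55788857 of GRCm38) had 19, 4, 8 and 10 counts in the Cre+ MPTP libraries and 10, 7 and 6 counts in the Cre+ Saline libraries. These few counts overlapped between the groups (log2 fold change of 0.49 with an SE of 0.476, adjusted p = 0.771 by edgeR) and, in tissue that also holds Ripk3 from other cells, could not check the deletion.

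Several libraries held RNA of tissue outside the midbrain. The summed CPM of 15 heart muscle genes was 8392 in Cre+ MPTP mouse 4, against 25.3 to 55.9 in the other Cre+ MPTP libraries and 25.7 to 196.3 in the Cre+ Saline libraries. The sum of 12 pituitary genes was 636 in Cre+ Saline mouse 1 and 466 in mouse 3, against 27.1 in mouse 2 and 13.4 to 33.1 in the Cre+ MPTP libraries, and a cerebellum sum of 61.3 also set Cre+ Saline mouse 1 apart from the others (4.89 to 20.45). DESeq2 called the pituitary genes Gh, Cga, Prl and Lhb lower, beside these sums. Cga, the shared subunit of pituitary hormones, had 0.149, 0.114, 0.0905 and 0.391 CPM with MPTP and 11.5, 0.414 and 7.89 CPM with Saline. Cre+ MPTP mouse 2 stood apart along the second principal component of the 7 libraries and had the highest acute-phase genes of its group, given below. Along the third component (14.4% of the variance) Saline mice stood at -13.1, -7.67 and -10.9, and MPTP mice at 11.5, -1.15, 21.4 and -0.001. Among its largest weights, Prl, Gh, Cga, Hoxb5, Hoxc4, Hoxa5 and Hoxb4 were negative, and Lcn2, Saa3, Ifi204 and Zbp1 were positive. Astrocyte, microglial, neuronal and oligodendrocyte markers were all detected in every library, and of the blood cell markers Cd3g, Cd8a, Cd8b1 and Ly6g had at most 3 counts in each of the 7 libraries.

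**Figure D1:**
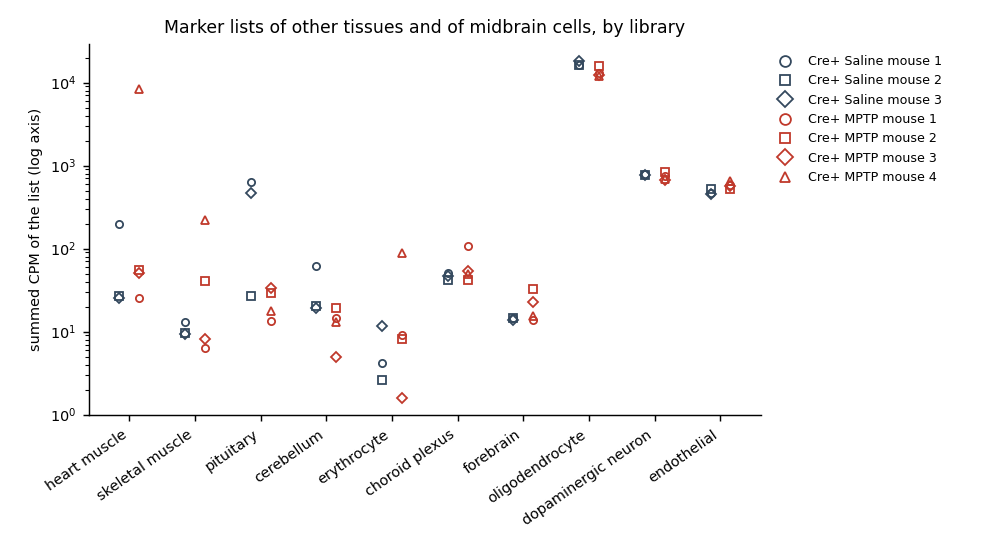
Summed CPM of 10 marker lists (log axis) in each Cre+ library, with Saline mice in dark blue and MPTP mice in red and a symbol per mouse. The heart muscle sum of 8392 in MPTP mouse 4 and the pituitary sums of 636 and 466 in Saline mice 1 and 3 stand apart, while the dopaminergic neuron sums of the groups overlap.

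MPTP raised genes of the interferon and antigen presentation programs in Cre+ mice, and the genes that DESeq2 called lower included 4 immediate-early factors and 7 oligodendrocyte genes. edgeR's quasi-likelihood test called 14 of 18502 genes higher (0.0757%) and 1 lower (0.0054%) at a Benjamini-Hochberg adjusted p under 0.05. Of the 18502 genes 1814 had an unadjusted p under 0.05, the background for the counts at that threshold given for the lists. DESeq2 called 203 of 17992 genes higher (1.13%) and 116 lower (0.645%) on the same libraries, and limma voom called 97 and 83. The CPM of all 4 MPTP libraries lay above those of all 3 Saline libraries for 934 genes (5.05%) and below them for 908 genes (4.91%). Each of the 15 genes called by edgeR was also called by DESeq2 and by limma voom, and none of them overlapped between the groups.

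The number of calls depended on the libraries that entered the fit. With all 13 libraries in the fit, edgeR called 0 genes (672 at an unadjusted p under 0.05, smallest adjusted p 0.0598) and DESeq2 called 75 higher and 8 lower. Without Cre+ MPTP mouse 1, edgeR called 0 genes (1504 at an unadjusted p under 0.05, against 1814 with all 7). It also called 0 without Cre+ Saline mouse 3 (1010 at an unadjusted p under 0.05), while without Saline mouse 2 it called 0 higher and 2 lower, and without Saline mouse 1 it called 2 higher and 0 lower. Without Cre+ MPTP mouse 2 it called 153 higher and 95 lower, including all 15, and without mouse 4, which held muscle RNA, it called 26 and 4, again including all 15. Without Cre+ MPTP mouse 3 it called 12 higher and 0 lower, 9 of them among the 15. DESeq2 called all 15 genes with any 1 of the 7 libraries left out, and also without Cre+ MPTP mouse 4 together with Cre+ Saline mouse 1 or 3.

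**Figure D2:**
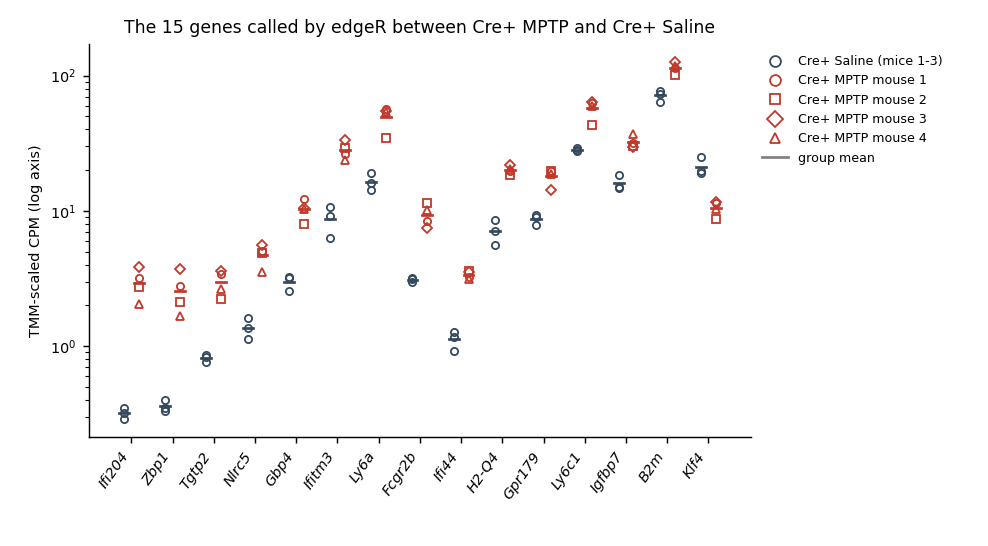
TMM-scaled CPM (log axis) of the 15 genes called by edgeR, with Saline mice in dark blue, MPTP mice in red with a symbol per mouse, and bars at the group means. In each of the 15 genes the groups do not overlap, with 14 higher and Klf4 lower in MPTP mice.

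Type I interferon-stimulated genes, which encode sensors, transcription factors and effectors of antiviral defence, were higher with MPTP. Of the 43 genes of this list, all tested, 32 did not overlap between the groups and were higher and 0 were lower, against backgrounds of 5.05% and 4.91% of all genes. DESeq2 called 25 of the 43 higher and 0 lower, against 1.13% and 0.645% of all genes, and edgeR called 3 higher (background 0.0757%) and 0 lower. All 43 had a positive log2 fold change, and the median was 0.94 where the median of all 18502 genes was 0.0002. With single libraries left out DESeq2 called 16 to 30 of them, and 11 without Cre+ MPTP mouse 4 and Cre+ Saline mouse 3 together. Relative to the Saline mean, the median level of the list stood at 0.75, 0.51, 1.17 and 0.79 (log2) in MPTP mice 1 to 4, highest in mouse 3 and lowest in mouse 2.

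Ifi204 (ENSMUSG00000073489, chromosome 1, 173747293 to 173766943), a member of the IFI200 family of DNA sensors that lies outside these lists, had 3.17, 2.73, 3.85 and 2.03 CPM with MPTP and 0.322, 0.2898 and 0.3497 CPM with Saline. Every MPTP library lay above every Saline library, mouse 3 highest and mouse 4 lowest, and the gene rose (log2 fold change of 3.18 with an SE of 0.302, adjusted p = 0.0141 by edgeR). The family has near-identical copies, so its reads may be shared among them. Zbp1 (ENSMUSG00000027514, chromosome 2, 173206612 to 173218923), which senses Z-form nucleic acids and can activate RIPK3, had 2.8, 2.11, 3.71 and 1.68 CPM with MPTP and 0.402, 0.331 and 0.3497 CPM with Saline. The order of the MPTP libraries was that of Ifi204, again without overlap, and Zbp1 rose (log2 fold change of 2.82 with an SE of 0.343, adjusted p = 0.0281 by edgeR). Ifitm3 (ENSMUSG00000025492, chromosome 7, 141009586 to 141010770), which restricts viral entry at membranes, had 26.4, 29.2, 33.4 and 23.6 CPM with MPTP and 9.12, 6.29 and 10.7 CPM with Saline. It rose with MPTP (log2 fold change of 1.69 with an SE of 0.186, adjusted p = 0.0175 by edgeR), and every MPTP library was above every Saline library. Ifi44, an interferon-induced gene, had 3.25, 3.59, 3.53 and 3.13 CPM with MPTP and 0.924, 1.16 and 1.28 CPM with Saline, a tight group of 4 above a tight group of 3, and rose as well (log2 fold change of 1.58 with an SE of 0.197, adjusted p = 0.0281 by edgeR).

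Irf7, the transcription factor that amplifies interferon production, had 10.8, 6.83, 16.2 and 12 CPM with MPTP and 3.34, 3.19 and 2.18 CPM with Saline. All MPTP libraries were above all Saline libraries, with mouse 3 highest and mouse 2 lowest, and DESeq2 but not edgeR called the gene higher (log2 fold change of 1.98 with an SE of 0.285, adjusted p = 0.0549 by edgeR and 2.02e-11 by DESeq2). Its locus shares bases with Phrf1 of the other strand, which had 9029 counts over the 7 libraries against 1289 of Irf7, and the strand setting of the counting is not given in the sources used here. Isg15, a ubiquitin-like modifier, had 5.23, 6.21, 9.55 and 4.46 CPM with MPTP and 2.73, 1.82 and 2.604 CPM with Saline. The groups did not overlap, and the call was again DESeq2's alone (log2 fold change of 1.41 with an SE of 0.281, adjusted p = 0.122 by edgeR and 0.000107 by DESeq2). Oasl2, of the oligoadenylate synthetase family, had 16.2, 17.1, 25.4 and 14.3 CPM with MPTP and 8.72, 6.75 and 6.76 CPM with Saline, with mouse 3 highest (log2 fold change of 1.3 with an SE of 0.202, adjusted p = 0.0604 by edgeR and 9.82e-09 by DESeq2). Rsad2, or viperin, had 4.44, 3.99, 6.07 and 7.15 CPM with MPTP and 2.73, 2.24 and 1.904 CPM with Saline, and here mouse 4 was highest (log2 fold change of 1.24 with an SE of 0.242, adjusted p = 0.118 by edgeR and 0.000361 by DESeq2).

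The GTPases of the GBP and IRG families, which interferon-gamma induces and which act on vacuoles of intracellular pathogens, formed the list with the highest median of those on the interferon response. Of 15 genes listed 14 were tested, 13 of these did not overlap and were higher, and 0 were lower, with a median log2 fold change of 1.04. DESeq2 called 11 higher, 9 to 12 with libraries left out, and edgeR called Gbp4 and Tgtp2. Gbp4 (ENSMUSG00000079363, chromosome 5, 105115767 to 105139586) had 12.2, 7.97, 10.5 and 10.4 CPM with MPTP and 3.25, 2.57 and 3.19 CPM with Saline. It rose with MPTP (log2 fold change of 1.77 with an SE of 0.175, adjusted p = 0.0141 by edgeR), mouse 2 being the lowest of the MPTP group and still above each Saline library. It overlaps Gbp9 and Gbp8 on the same strand, so that reads in shared exons may not have been counted for either. Gbp9 itself had 9.26, 10.1, 11.3 and 11.1 CPM with MPTP and 6.31, 5.92 and 5.67 CPM with Saline, all MPTP libraries above all Saline libraries (log2 fold change of 0.81 with an SE of 0.1204, adjusted p = 0.0581 by edgeR and 4.22e-05 by DESeq2). Tgtp2 (ENSMUSG00000078921, chromosome 11, 49057194 to 49064206) had 3.398, 2.22, 3.58 and 2.66 CPM with MPTP and 0.764, 0.828 and 0.855 CPM with Saline. It rose (log2 fold change of 1.86 with an SE of 0.2404, adjusted p = 0.0341 by edgeR) without overlap, and it has a near-identical neighbour, Tgtp1, with which reads may be shared. Irgm1, a regulator of the family, had 13.9, 16.6, 17.5 and 13.6 CPM with MPTP and 8.76, 8.74 and 9.404 CPM with Saline, higher in every MPTP library by DESeq2 (log2 fold change of 0.78 with an SE of 0.12, adjusted p = 0.0587 by edgeR and 1.2e-05 by DESeq2).

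Because the interferon genes moved together, the promoters of the lists were searched on both strands for GAAANNGAAA, the core of the element bound by interferon regulatory factors, in the RefSeq windows of 250 bases before to 50 bases after the start (GRCm38.p6). The letters occurred in 1079 of 27025 genes with a window (3.99%), in 16 of 31 interferon-stimulated genes (51.6%), in 9 of 10 GTPases (90.0%) and in 4 of 16 MHC class I genes. They occurred in 2 of 11 immediate-early genes (18.2%), 1 of 14 acute-phase genes (7.14%), 1 of 10 complement genes and 0 of 10 oligodendrocyte genes. Of the 14 genes called higher by edgeR, 9 had a window and 3 of these (B2m, Ifitm3 and Tgtp2) held the letters, while Ifi204, Zbp1, Nlrc5, Gbp4 and Ly6a were without a window. The stretches below show where the letters lie in genes of the 3 lists, read 5′ to 3′ on the strand of the gene, with the match or its reverse complement in capitals and 25 bases of flank kept where they lie before the start. A match describes the letters and not a site in use, and overlapping matches occur in Isg15 and Irgm1.
B2m (chr2:122147523-122147582, plus strand): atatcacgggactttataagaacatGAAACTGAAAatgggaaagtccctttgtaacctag
Tgtp2 (chr11:49064248-49064307, minus strand): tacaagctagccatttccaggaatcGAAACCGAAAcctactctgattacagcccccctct
Irgm1 (chr11:48871421-48871475, minus strand): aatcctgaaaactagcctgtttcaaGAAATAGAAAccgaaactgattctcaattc
Gbp7 (chr3:142530258-142530317, plus strand): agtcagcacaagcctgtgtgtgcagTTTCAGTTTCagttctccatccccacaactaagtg
Isg15 (chr4:156200856-156200915, minus strand): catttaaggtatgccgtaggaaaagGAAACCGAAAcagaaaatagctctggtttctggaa
Rsad2 (chr12:26456538-26456597, minus strand): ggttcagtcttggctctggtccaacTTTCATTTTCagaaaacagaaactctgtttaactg
Ifit1 (chr19:34640779-34640838, plus strand): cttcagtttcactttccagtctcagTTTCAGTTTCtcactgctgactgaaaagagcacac
H2-T23 (chr17:36032791-36032850, minus strand): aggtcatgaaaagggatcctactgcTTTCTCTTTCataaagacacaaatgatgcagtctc

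Genes of MHC class I antigen presentation, which load and display peptides of cytosolic proteins, were higher as well. Of the 19 genes, all tested, 13 did not overlap and were higher and 0 were lower, with a median log2 fold change of 0.68. DESeq2 called 12 of them higher and 8 to 12 with libraries left out, and edgeR called H2-Q4, Nlrc5 and B2m. H2-Q4 (ENSMUSG00000035929, chromosome 17, 35379617 to 35385290), a nonclassical class I gene, had 19.8, 18.4, 21.7 and 20.4 CPM with MPTP and 8.601, 7.12 and 5.56 CPM with Saline. The MPTP libraries lay close together and well above the Saline libraries, and H2-Q4 rose (log2 fold change of 1.5 with an SE of 0.147, adjusted p = 0.0141 by edgeR). Nlrc5 (ENSMUSG00000074151, chromosome 8, 94434356 to 94527272), the transactivator of class I genes, had 5.04, 4.84, 5.57 and 3.56 CPM with MPTP and 1.37, 1.61 and 1.13 CPM with Saline. It rose (log2 fold change of 1.79 with an SE of 0.2197, adjusted p = 0.0281 by edgeR), lowest in mouse 4. B2m (ENSMUSG00000060802, chromosome 2, 122147686 to 122153083), the light chain of every class I molecule, had 113, 100.3, 127 and 117 CPM with MPTP and 76.9, 63.5 and 73.4 CPM with Saline. Its groups did not overlap and it rose with a smaller fold and small errors (log2 fold change of 0.68 with an SE of 0.0934, adjusted p = 0.0438 by edgeR).

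The classical heavy chain H2-K1 had 80.8, 56.6, 89.6 and 74.2 CPM with MPTP and 42.2, 40.9 and 39.3 CPM with Saline. Mouse 2 was lowest of the MPTP group, the groups did not overlap, and the call was made by DESeq2 (log2 fold change of 0.88 with an SE of 0.133, adjusted p = 0.0581 by edgeR and 3.24e-09 by DESeq2). H2-D1, the other classical chain, had 134, 108, 153 and 146 CPM with MPTP and 93.7, 89.2 and 91.7 CPM with Saline, also without overlap (log2 fold change of 0.56 with an SE of 0.107, adjusted p = 0.113 by edgeR and 3e-05 by DESeq2). The class I heavy chains are near-identical, so reads may be assigned among them. Psmb8, a subunit of the immunoproteasome that cuts peptides for class I, had 6.796, 8.43, 10.9 and 8.79 CPM with MPTP and 4.26, 3.77 and 3.92 CPM with Saline (log2 fold change of 1.13 with an SE of 0.172, adjusted p = 0.0584 by edgeR and 3.62e-06 by DESeq2). Tap1, which carries the peptides into the endoplasmic reticulum, had 10.2, 7.69, 11.6 and 9.03 CPM with MPTP and 4.58, 5.55 and 6.76 CPM with Saline. It was higher in each MPTP library (log2 fold change of 0.78 with an SE of 0.182, adjusted p = 0.164 by edgeR and 0.00456 by DESeq2), but its DESeq2 call was lost without MPTP mouse 1 or 3 or Saline mouse 1 or 2, with adjusted p up to 0.105. MHC class II genes, which present extracellular antigens, did not share this pattern. None of their 7 genes was called by edgeR or DESeq2, 0 had an unadjusted p under 0.05, and all 7 overlapped. Their transactivator Ciita had 2.09, 1.94, 1.72 and 1.76 CPM with MPTP and 1.57, 1.91 and 1.75 CPM with Saline, and the groups overlapped. Ciita shares bases with Dexi on the opposite strand, which had 7182 counts over the 7 libraries against 303 of Ciita.

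Joined, the 3 lists held 76 tested genes, of which 58 did not overlap and were higher and 0 were lower. A positive log2 fold change was found in 75 of the 76, and their median was 0.89. DESeq2 called 48 of them, which is 23.6% of its 203 higher genes, and 8 of the 14 higher calls of edgeR were in these lists.

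**Figure D3:**
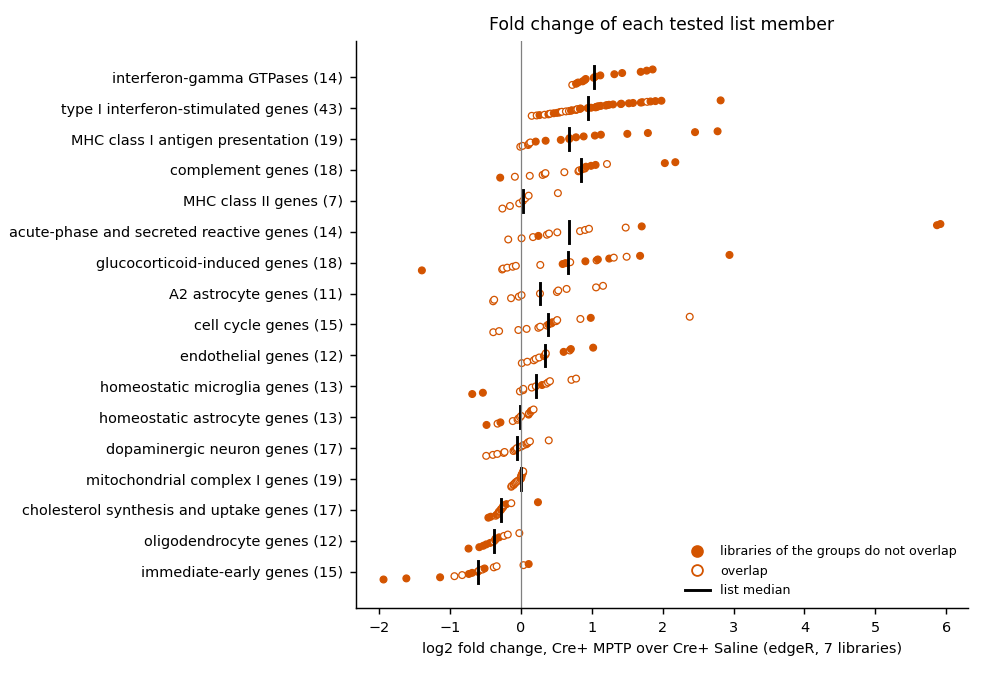
Log2 fold change (edgeR, 7 libraries) of each tested gene in 17 lists, with the number tested in brackets and a black bar at the median. Filled points mark genes whose CPM do not overlap between the groups. The 3 interferon and MHC class I lists have medians of 0.68 to 1.04, and the immediate-early list has the lowest median, -0.61.

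Besides Ifi204, the genes outside the interferon, GTPase and class I lists that edgeR called higher were Fcgr2b, Ly6a, Ly6c1, Igfbp7 and Gpr179. Fcgr2b (ENSMUSG00000026656, chromosome 1, 170958617 to 170976547), the inhibitory receptor for the Fc part of antibodies, had 8.36, 11.4, 7.42 and 10.2 CPM with MPTP and 2.97, 3.19 and 3.15 CPM with Saline. Mouse 2 was highest and mouse 3 lowest of the MPTP group, without overlap, and Fcgr2b rose (log2 fold change of 1.59 with an SE of 0.174, adjusted p = 0.0175 by edgeR). Ly6a (ENSMUSG00000075602, chromosome 15, 74994877 to 74998031), also called Sca-1 and found on endothelium, had 56.3, 34.4, 54.5 and 54.05 CPM with MPTP and 16, 14.4 and 18.96 CPM with Saline. It rose (log2 fold change of 1.6 with an SE of 0.174, adjusted p = 0.0175 by edgeR), with mouse 2 well below the other MPTP mice yet above each Saline mouse. Ly6c1 (ENSMUSG00000079018, chromosome 15, 75044018 to 75048830), another endothelial surface gene of this family, had 62.7, 42.8, 63.7 and 59.2 CPM with MPTP and 28.1, 28.9 and 27.6 CPM with Saline. The 3 Saline libraries were nearly equal, and Ly6c1 rose (log2 fold change of 1.02 with an SE of 0.127, adjusted p = 0.0281 by edgeR). Ly6 genes have near-identical copies, and their counts are uncertain in that respect. Igfbp7 (ENSMUSG00000036256, chromosome 5, 77349240 to 77408041), a secreted binding protein of endothelium, had 31.6, 30.4, 29.5 and 37.2 CPM with MPTP and 14.8, 18.3 and 15.1 CPM with Saline. It rose (log2 fold change of 1.00 with an SE of 0.114, adjusted p = 0.0201 by edgeR), highest in mouse 4, which held the muscle RNA, and it overlaps Polr2b on the opposite strand. Gpr179, a receptor-like gene of the retina that the naming rule did not pick and that was chosen after its values were seen, had 19.8, 19.7, 14.2 and 18.7 CPM with MPTP and 7.92, 9.03 and 9.33 CPM with Saline and rose (log2 fold change of 1.05 with an SE of 0.137, adjusted p = 0.0341 by edgeR).

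Among 12 endothelial genes, 4 did not overlap and were higher and 0 were lower, with a median log2 fold change of 0.34. edgeR called Ly6c1 and DESeq2 called Ly6c1 and Pecam1. Pecam1, an adhesion molecule of endothelial junctions, had 43.4, 30.4, 40.6 and 49.5 CPM with MPTP and 24.96, 26.7 and 23.9 CPM with Saline. It was higher in every MPTP library (log2 fold change of 0.70 with an SE of 0.142, adjusted p = 0.123 by edgeR and 9.47e-05 by DESeq2) and highest in mouse 4. The summed endothelial CPM ran from 522 to 649.8 in the MPTP and from 457 to 525.6 in the Saline libraries, also highest in mouse 4, whose heart muscle sum was 8392, and the part of that tissue in the endothelial values was not tested. Without mouse 4, DESeq2 called 2 genes of this list. No pericyte or smooth muscle gene was called by edgeR or DESeq2 (1 of 9 at an unadjusted p under 0.05).

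Complement genes, which tag debris and synapses for microglia, followed with a median log2 fold change of 0.84 over 18 tested genes. Of these 7 did not overlap and were higher and 1 was lower. edgeR called 0 of them (11 at an unadjusted p under 0.05), and DESeq2 called 6, all higher. This number ran from 5 to 9 with single libraries left out and fell to 1 without Cre+ MPTP mouse 4 and Cre+ Saline mouse 3 together. C4b, the central component that astrocytes make, had 98.8, 96.3, 96.99 and 86.6 CPM with MPTP and 60.7, 36.6 and 45.7 CPM with Saline. Its MPTP libraries were close together and all above the more spread Saline libraries (log2 fold change of 0.99 with an SE of 0.145, adjusted p = 0.0581 by edgeR and 1.6e-10 by DESeq2), and its copy C4a may share its reads. C5ar1, the receptor for the fragment C5a, had 2.39, 2.51, 1.22 and 2.66 CPM with MPTP and 0.723, 0.2898 and 0.427 CPM with Saline, low but without overlap (log2 fold change of 2.18 with an SE of 0.388, adjusted p = 0.105 by edgeR and 0.000131 by DESeq2). Itgam, a subunit of complement receptor 3 on microglia, had 12.3, 7.63, 12.6 and 11.5 CPM with MPTP and 6.71, 5.96 and 5.05 CPM with Saline (log2 fold change of 0.90 with an SE of 0.189, adjusted p = 0.129 by edgeR and 0.000498 by DESeq2). C1qa, which starts the classical pathway, had 78.4, 40.2, 74.8 and 78.1 CPM with MPTP and 40.4, 37.5 and 38.3 CPM with Saline. Its level in mouse 2 was within the Saline range while the other 3 MPTP mice were alike and higher, so the groups overlapped and neither tool called it (log2 fold change of 0.81 with an SE of 0.201, adjusted p = 0.189 by edgeR and 0.0824 by DESeq2).

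The acute-phase and secreted reactive genes were uneven among the MPTP mice. Of 18 listed 14 were tested, 4 did not overlap and were higher and 0 were lower, and the median log2 fold change was 0.67. edgeR called 0 of them (6 at an unadjusted p under 0.05) and DESeq2 called Lcn2. Lcn2, a secreted iron-siderophore binding protein of reactive astrocytes, had 26.1, 156, 15.7 and 20.8 CPM with MPTP and 0.804, 0.621 and 1.24 CPM with Saline. All MPTP libraries were far above all Saline libraries, but mouse 2 was apart from the other 3, and the call was DESeq2's alone (log2 fold change of 5.92 with an SE of 1.02, adjusted p = 0.0954 by edgeR and 2.64e-07 by DESeq2). Saa3, a serum amyloid A protein, had 2.73, 67.9, 5.12 and 1.33 CPM with MPTP and 0, 0.414 and 0.544 CPM with Saline. The level came mainly from mouse 2 (log2 fold change of 5.87 with an SE of 1.66, adjusted p = 0.266 by edgeR), and DESeq2 gave no adjusted p. Serpina3n, a protease inhibitor of reactive astrocytes, had 38.9, 174, 40.8 and 24.7 CPM with MPTP and 19.9, 21.5 and 22.2 CPM with Saline, and of these mouse 4 was near the Saline range (log2 fold change of 1.7 with an SE of 0.603, adjusted p = 0.401 by edgeR and 0.355 by DESeq2). The median level of the list relative to Saline was 0.18, 1.59, 0.17 and 0.25 (log2) in MPTP mice 1 to 4, so mouse 2 alone was far from the Saline mice.

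Of 13 pan-reactive astrocyte genes, 4 did not overlap and were higher and 0 were lower. edgeR called 0 (8 at an unadjusted p under 0.05) and DESeq2 called Lcn2 and Cxcl10. Gfap, the intermediate filament that marks reactive astrocytes, had 389, 666, 338 and 387 CPM with MPTP and 416, 357 and 556 CPM with Saline. The groups overlapped, with mouse 2 and Saline mouse 3 highest (log2 fold change of 0.01 with an SE of 0.2301, adjusted p = 0.996 by edgeR and 0.997 by DESeq2), and the DESeq2 log2 fold change was -0.25 without MPTP mouse 2. Of the 11 genes described as A1 astrocyte genes, 8 did not overlap and were higher and 0 were lower, and DESeq2 called 5 higher where edgeR called 0 (9 at an unadjusted p under 0.05). The 5 were Psmb8, H2-T23, H2-D1, Srgn and Iigp1, and all but Srgn, a proteoglycan core protein, are also in the class I or GTPase lists. The DESeq2 call of Srgn was kept only without MPTP mouse 2 or 3 when single libraries were left out. H2-T23, a nonclassical class I gene, had 27.7, 22.04, 30.6 and 26.8 CPM with MPTP and 14.99, 16.3 and 18.8 CPM with Saline, without overlap. Of 12 A2 astrocyte genes 11 were tested, and 0 were called by edgeR or DESeq2, 0 did not overlap and 1 had an unadjusted p under 0.05. S100a10 of that list, an annexin partner, had 13.9, 25.3, 12.3 and 14.5 CPM with MPTP and 17.4, 17.5 and 19.4 CPM with Saline. Of 15 genes of a qRT-PCR panel 14 were tested, and DESeq2 called 6 higher (Psmb8, Lcn2, H2-T23, H2-D1, Srgn and Cxcl10) and edgeR 0. Of 13 homeostatic astrocyte genes 2 did not overlap and were higher and 2 were lower, edgeR called 0 (3 at an unadjusted p under 0.05), and DESeq2 called Kcnj10, a potassium channel that buffers the extracellular space, lower. Its call was kept only without MPTP mouse 2 when single libraries were left out, with adjusted p up to 0.274. Aldh1l1, whose promoter drives the Cre, had 93.2, 92.9, 113 and 93.4 CPM with MPTP and 87.4, 88.4 and 90.7 CPM with Saline, slightly higher in each MPTP library but called by neither tool.

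Glucocorticoid-induced genes had a median log2 fold change of 0.66 over 18 tested genes, of which 7 did not overlap and were higher and 1 was lower. edgeR called 0 (10 at an unadjusted p under 0.05) and DESeq2 called 4 higher and 1 lower, which was Dusp1. Sult1a1, a sulfotransferase, had 20.4, 15.5, 14.3 and 20.8 CPM with MPTP and 10.8, 6.29 and 8.01 CPM with Saline, and all MPTP libraries were above all Saline libraries (log2 fold change of 1.08 with an SE of 0.203, adjusted p = 0.113 by edgeR and 5.34e-06 by DESeq2). Plin4, a lipid droplet protein, had 15.4, 55.7, 5.93 and 39.7 CPM with MPTP and 5.18, 2.77 and 3.38 CPM with Saline. Mice 2 and 4 were high and mouse 3 was close to the Saline range (log2 fold change of 2.94 with an SE of 0.6799, adjusted p = 0.161 by edgeR and 0.01396 by DESeq2), and its DESeq2 call was lost without MPTP mouse 2 or 4 or Saline mouse 2 or 3, with adjusted p up to 0.225. Plin4 overlaps Hdgfl2 on the opposite strand, and mouse 4 held the muscle RNA, whose part was not tested. Fkbp5, a chaperone of the glucocorticoid receptor, had 28.7, 55.3, 24.3 and 29.7 CPM with MPTP and 23.03, 21.4 and 24.2 CPM with Saline, without overlap, although mouse 3 was close to the Saline range (log2 fold change of 0.59 with an SE of 0.248, adjusted p = 0.479 by edgeR and 0.596 by DESeq2). Cdkn1a, a cell cycle inhibitor, had 14.97, 70.1, 11.2 and 17.9 CPM with MPTP and 11.3, 15.3 and 13.99 CPM with Saline, again high in mouse 2 only among the MPTP mice, and the groups overlapped (log2 fold change of 1.07 with an SE of 0.572, adjusted p = 0.564 by edgeR and 0.737 by DESeq2).

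Of 15 chemokine genes 8 were tested, 1 did not overlap and was higher, and DESeq2 called Ccl12, Cxcl10 and Ccl2 where edgeR called 0 (5 at an unadjusted p under 0.05). Ccl12, a ligand of CCR2, had 3.17, 0.683, 2.54 and 1.29 CPM with MPTP and 0.402, 0.0828 and 0.427 CPM with Saline. Ccl2, the main ligand of that receptor, had 0.149, 3.99, 0.453 and 1.13 CPM with MPTP and 0.201, 0.0828 and 0.0389 CPM with Saline, so MPTP mouse 1 was within the Saline range and mouse 2 was highest (log2 fold change of 3.62 with an SE of 1.15, adjusted p = 0.336 by edgeR and 0.00676 by DESeq2). The DESeq2 call of Ccl2 was lost without Saline mouse 2 or 3 (adjusted p up to 0.482), and DESeq2 gave no adjusted p without MPTP mouse 2, 3 or 4. Cxcl10, an interferon-induced ligand of CXCR3, had 1.38, 3.53, 1.76 and 0.821 CPM with MPTP and 0.442, 0.207 and 0.894 CPM with Saline with overlap (log2 fold change of 1.82 with an SE of 0.5801, adjusted p = 0.336 by edgeR and 0.0425 by DESeq2), and its DESeq2 call was lost without any 1 of 5 libraries, with adjusted p up to 0.365. Cxcl10 lies within Art3 on the opposite strand. Among 13 genes of the NF-kappaB pathway 3 did not overlap and were higher, and DESeq2 called Icam1, an adhesion molecule for leukocytes, which had 8.102, 20.2, 5.61 and 8.36 CPM with MPTP and 3.38, 3.02 and 2.41 CPM with Saline. The call of Icam1 was kept only without MPTP mouse 2 or 3, with adjusted p up to 0.287. edgeR called 0 of the 13 (3 at an unadjusted p under 0.05).

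Of 14 genes of necroptosis and death receptor signaling, the pathway in which RIPK3 acts, 4 did not overlap and were higher and 1 was lower. Zbp1 was the single call of both edgeR and DESeq2, and 4 had an unadjusted p under 0.05. Mlkl, the executioner of necroptosis, had 0.971, 0.7403, 0.951 and 1.45 CPM with MPTP and 0.723, 0.166 and 0.311 CPM with Saline, low levels that did not overlap but were called by neither tool (log2 fold change of 1.36 with an SE of 0.471, adjusted p = 0.391 by edgeR and 0.276 by DESeq2). Casp8, the protease that restrains RIPK3, had 4.59, 4.61, 4.16 and 5.51 CPM with MPTP and 3.01, 3.15 and 2.53 CPM with Saline, higher in each MPTP library and past the threshold of neither tool (log2 fold change of 0.71 with an SE of 0.167, adjusted p = 0.166 by edgeR and 0.0524 by DESeq2). The DAMP ligands and receptors had 12 of 14 genes tested, with 0 calls by edgeR or DESeq2 and 5 at an unadjusted p under 0.05. Il33, an alarmin of oligodendrocytes and astrocytes, was the one gene of that list without overlap, at 86.3, 99.99, 103 and 78.6 CPM with MPTP and 122, 104 and 109.7 CPM with Saline.

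Immediate-early genes, transcribed within minutes of synaptic activity or other stimuli, were lower in the Cre+ MPTP than in the Cre+ Saline mice. Of 15 tested genes 7 did not overlap and were lower and 1 was higher, with a median log2 fold change of -0.61. The higher gene was Arc, called by neither tool. On the scale of all 13 libraries, Arc had 26.8, 28.4, 25.9 and 25.6 CPM with MPTP and 23.5, 25.1 and 25.4 CPM with Saline. DESeq2 called Btg2, Nr4a1, Ier2 and Junb lower, and edgeR called 0 of the 15 (9 at an unadjusted p under 0.05). With single libraries left out DESeq2 called 4 to 7 of the list lower, and without Cre+ MPTP mouse 4 together with Cre+ Saline mouse 1 or 3 it called 1 and 2. Btg2, an antiproliferative gene, had 9.596, 26.1, 15.9 and 10.5 CPM with MPTP and 59.4, 61.7 and 55.9 CPM with Saline. The Saline libraries were nearly equal and far above the MPTP libraries, of which mouse 2 was highest (log2 fold change of -1.94 with an SE of 0.2902, adjusted p = 0.0581 by edgeR and 0.000266 by DESeq2). Nr4a1, an orphan nuclear receptor, had 15.2, 30.01, 28.7 and 15.2 CPM with MPTP and 72.3, 73.8 and 57.8 CPM with Saline, with MPTP mice 2 and 3 highest (log2 fold change of -1.62 with an SE of 0.244, adjusted p = 0.0583 by edgeR and 0.000222 by DESeq2). Ier2, a nuclear protein of this class, had 4.74, 8.14, 6.65 and 5.51 CPM with MPTP and 11.1, 18.2 and 11.97 CPM with Saline (log2 fold change of -1.14 with an SE of 0.221, adjusted p = 0.117 by edgeR and 4.46e-05 by DESeq2), and its DESeq2 call held in every leave-out. Junb, an AP-1 subunit, had 16.9, 30.1, 23.8 and 20.6 CPM with MPTP and 36.8, 39.7 and 37.1 CPM with Saline (log2 fold change of -0.73 with an SE of 0.162, adjusted p = 0.1498 by edgeR and 0.000476 by DESeq2). It overlaps Prdx2, a more strongly counted gene, on the opposite strand. On the scale of all 13 libraries, Cre- Saline mice were below Cre+ Saline mice in Btg2, Nr4a1, Ier2 and Junb. Btg2 had 10.1, 22.1 and 21.8 against 58.2, 60.65 and 54.8 CPM. Nr4a1 had 20.8, 32.7 and 41.3 against 70.9, 72.5 and 56.65 CPM. Ier2 had 5.64, 7.65 and 8.25 against 10.8, 17.9 and 11.7 CPM. Junb had 20.75, 26.95 and 30.6 against 36.1, 39.0 and 36.4 CPM. Why the Saline groups differed was not tested. Fos, the AP-1 partner that is most used as a marker of activity, had 13.5, 34.3, 19.5 and 12.9 CPM with MPTP and 34.9, 38.6 and 32.8 CPM with Saline, and mouse 2 was within the Saline range (log2 fold change of -0.83 with an SE of 0.296, adjusted p = 0.405 by edgeR and 0.504 by DESeq2).

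The single gene that fell by edgeR's test was Klf4 (ENSMUSG00000003032, chromosome 4, 55527143 to 55532466), a transcription factor of endothelium and other cells that is also induced rapidly by stimuli. It had 11.4, 8.65, 11.7 and 10.2 CPM with MPTP and 19.6, 24.97 and 19.1 CPM with Saline, with no overlap, and fell (log2 fold change of -1.01 with an SE of 0.137, adjusted p = 0.0421 by edgeR). On the scale of all 13 libraries, Klf4 had 8.77, 9.57 and 10.4 CPM in Cre- Saline and 19.2, 24.5 and 18.7 CPM in Cre+ Saline mice. Klf2, its relative that responds to blood flow, had 5.601, 12.8, 13.1 and 5.24 CPM with MPTP and 23.1, 37.1 and 26.7 CPM with Saline (log2 fold change of -1.67 with an SE of 0.334, adjusted p = 0.122 by edgeR and 0.01396 by DESeq2), and its DESeq2 call was lost without MPTP mouse 1 or any Saline mouse, with adjusted p up to 0.246. Dusp1, a phosphatase of MAP kinases, had 20.8, 54.8, 29.2 and 29.9 CPM with MPTP and 79.98, 104 and 80.4 CPM with Saline (log2 fold change of -1.4 with an SE of 0.268, adjusted p = 0.113 by edgeR and 0.0125 by DESeq2). All MPTP libraries were below all Saline libraries, yet the DESeq2 call was kept only without MPTP mouse 1 or 2, with adjusted p up to 0.203. Atf3, a stress-induced factor, had 0.896, 0.854, 0.905 and 1.95 CPM with MPTP and 3.94, 5.01 and 3.96 CPM with Saline. Mouse 4 was the highest of the MPTP mice and still below the Saline mice (log2 fold change of -1.88 with an SE of 0.302, adjusted p = 0.0666 by edgeR and 4.15e-06 by DESeq2). Kcne4, a potassium channel subunit, had 1.12, 2.22, 0.996 and 0.782 CPM with MPTP and 3.497, 2.77 and 4.04 CPM with Saline and was called lower by DESeq2 (adjusted p = 0.00417, edgeR 0.159), a call lost without Saline mouse 1 or 3 (adjusted p up to 0.216). The unnamed transcript Gm12867 had 0.0373, 0.171, 0.588 and 0.0782 CPM with MPTP and 1.21, 1.82 and 0.738 CPM with Saline and was called lower by DESeq2 as well (adjusted p = 0.0254, edgeR 0.229), a call kept only without MPTP mouse 2 or 3. In Klf2, Dusp1, Atf3, Kcne4 and Gm12867 too, every Cre- Saline mouse was below every Cre+ Saline mouse on the scale of 13 libraries. Atf3 had 0.595, 0.586 and 1.61 CPM in Cre- Saline and 3.86, 4.92 and 3.88 CPM in Cre+ Saline mice. Why the Saline groups differed was not tested.

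**Figure D4:**
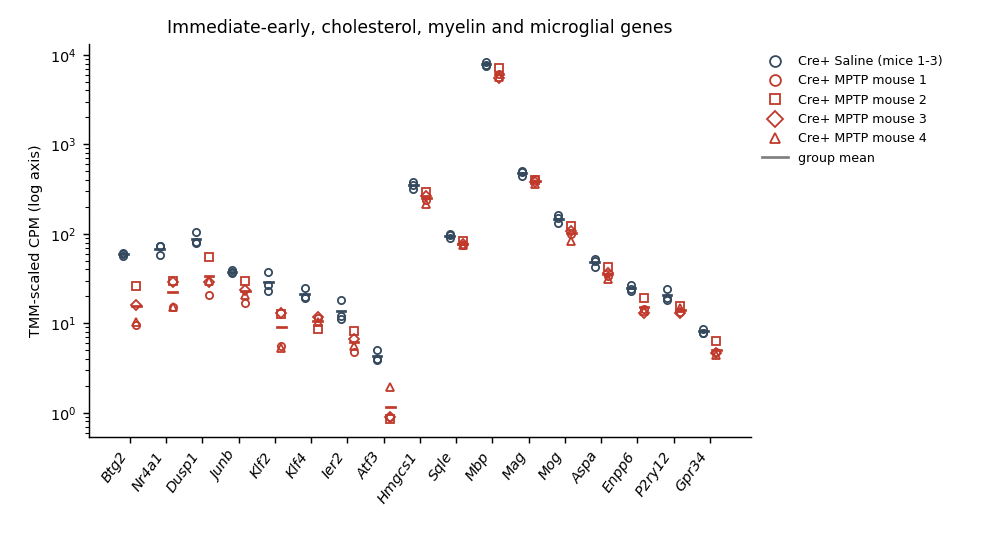
TMM-scaled CPM (log axis) of 17 genes at lower levels in Cre+ MPTP than in Cre+ Saline mice. Saline mice are in dark blue, MPTP mice in red with a symbol per mouse, and bars mark the group means. The genes come from the immediate-early, cholesterol, oligodendrocyte, oligodendrocyte precursor (Enpp6), homeostatic microglia, glucocorticoid-induced (Dusp1) and heat shock (Atf3) lists, and Klf2 and Klf4 are in no list. MPTP mouse 2 is the highest MPTP mouse in Btg2, Nr4a1, Dusp1 and Junb, and the groups do not overlap in any of the 17 genes.

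Oligodendrocyte genes were also lower with MPTP. Of 12 tested, 8 did not overlap and were lower and 0 were higher, with a median log2 fold change of -0.37. DESeq2 called 7 lower and edgeR 0 (9 at an unadjusted p under 0.05). Without Cre+ Saline mouse 3 DESeq2 called 0 of the 12, while with any other single library left out it called 4 to 8. Its lower calls over all genes fell from 116 to 25 without that mouse. Still, 8 of the 12 did not overlap and were lower without it. Saline mouse 3 had a pituitary sum of 466 CPM, and the part of tissue outside the midbrain in these values was not tested. Mbp, the main protein of compact myelin, had 6177, 7084, 5555 and 5629 CPM with MPTP and 7454, 7645 and 8421 CPM with Saline. The MPTP libraries were all lower, mouse 2 least so (log2 fold change of -0.36 with an SE of 0.0904, adjusted p = 0.196 by edgeR and 0.00931 by DESeq2), and without Saline mouse 3 the DESeq2 adjusted p was 0.235. Mog, on the outer surface of myelin, had 98.3, 122, 107 and 82.4 CPM with MPTP and 132, 150.2 and 160.3 CPM with Saline (log2 fold change of -0.53 with an SE of 0.1205, adjusted p = 0.157 by edgeR and 0.00121 by DESeq2), and Mag, at the contact with the axon, had 407, 395, 383 and 365 CPM with MPTP and 441, 496 and 501 CPM with Saline (log2 fold change of -0.31 with an SE of 0.0644, adjusted p = 0.129 by edgeR and 0.00313 by DESeq2). Aspa, which cleaves N-acetylaspartate in oligodendrocytes, had 33.5, 42.4, 36.1 and 31.7 CPM with MPTP and 52.6, 42.7 and 50.2 CPM with Saline, where mouse 2 nearly reached the lowest Saline mouse (log2 fold change of -0.44 with an SE of 0.108, adjusted p = 0.1898 by edgeR and 0.0173 by DESeq2). Mog, Mag and Aspa also lost their DESeq2 call without Saline mouse 3, with adjusted p of 0.0672, 0.143 and 0.249, as Mag did without Saline mouse 2 and Aspa without MPTP mouse 1 or 4 or Saline mouse 1.

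Of 10 oligodendrocyte precursor genes 3 did not overlap and were lower, 0 were higher, and DESeq2 called Enpp6 and Olig2 lower where edgeR called 0 (5 at an unadjusted p under 0.05). Enpp6, a marker of newly forming oligodendrocytes, had 14.5, 19.2, 13.04 and 13.8 CPM with MPTP and 23.2, 24.1 and 26.9 CPM with Saline (log2 fold change of -0.71 with an SE of 0.135, adjusted p = 0.113 by edgeR and 0.000117 by DESeq2), and its DESeq2 call held with any 1 library left out. Olig2, a transcription factor of the lineage, had 44.8, 52.1, 50.7 and 42.05 CPM with MPTP and 58.8, 59.95 and 62.2 CPM with Saline (log2 fold change of -0.35 with an SE of 0.0801, adjusted p = 0.159 by edgeR and 0.0192 by DESeq2), and its DESeq2 call was kept only without MPTP mouse 2 or 3. Genes of cholesterol synthesis and uptake, which supply myelin and synapses, had 8 of 17 tested genes lower and 1 higher without overlap, with a median log2 fold change of -0.28. DESeq2 called Sqle, Hmgcs1, Cyp51 and Mvd lower and edgeR 0 (14 at an unadjusted p under 0.05). DESeq2 called 0 of this list without Saline mouse 3, 10 without MPTP mouse 2, and 1 to 6 with other single libraries left out. Over all genes it called 25 lower without Saline mouse 3 and 264 without MPTP mouse 2, against 116 with all 7 libraries. Of the 17 genes, 8 still did not overlap and were lower without Saline mouse 3. Hmgcs1, an early enzyme of the pathway, had 237, 297, 266 and 217 CPM with MPTP and 319.5, 353 and 377 CPM with Saline (log2 fold change of -0.46 with an SE of 0.104, adjusted p = 0.157 by edgeR and 0.00169 by DESeq2), and without Saline mouse 3 its DESeq2 adjusted p was 0.0843. Sqle, which oxidizes squalene, had 74.9, 82.1, 76.04 and 74.2 CPM with MPTP and 90.8, 96.3 and 99.1 CPM with Saline, a tight group below another (log2 fold change of -0.31 with an SE of 0.06004, adjusted p = 0.113 by edgeR and 0.00364 by DESeq2), and its DESeq2 call was lost without MPTP mouse 1 or Saline mouse 2 or 3, with adjusted p up to 0.178.

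Most homeostatic microglia genes overlapped between the groups. Of 13 tested, 1 did not overlap and was higher and 2 were lower, with a median log2 fold change of 0.21. edgeR called 0 (7 at an unadjusted p under 0.05) and DESeq2 called P2ry12 and Gpr34 lower. P2ry12, the ADP receptor of resting microglia, had 13.5, 15.6, 12.99 and 14.7 CPM with MPTP and 24.1, 18.4 and 19.3 CPM with Saline, with the MPTP libraries close together below the Saline libraries (log2 fold change of -0.54 with an SE of 0.117, adjusted p = 0.145 by edgeR and 0.00668 by DESeq2). The DESeq2 call was lost without MPTP mouse 1 or Saline mouse 1 or 3 (adjusted p up to 0.212), and the gene lies within Med12l on the opposite strand. Gpr34, a lysophospholipid receptor, had 4.74, 6.32, 4.71 and 4.46 CPM with MPTP and 8.72, 7.74 and 7.89 CPM with Saline (log2 fold change of -0.69 with an SE of 0.151, adjusted p = 0.1498 by edgeR and 0.0118 by DESeq2), and its DESeq2 call was kept only without MPTP mouse 2. Gpr34 overlaps Cask on the opposite strand, which had 13700 counts over the 7 libraries against 1063 of Gpr34. Cx3cr1, the fractalkine receptor, had 49.03, 32.4, 44.5 and 47.4 CPM with MPTP and 33.2, 31.96 and 32.8 CPM with Saline, and Tmem119, a marker particular to microglia, had 24.8, 16.3, 27.2 and 25.8 CPM with MPTP and 19.2, 16.4 and 18.6 CPM with Saline. In both, mouse 2 was at the Saline level (within the Saline range for Cx3cr1 and just under it for Tmem119) and the other 3 MPTP mice were above it, as in C1qa, and neither tool called them (DESeq2 adjusted p = 0.0571 and 0.272). Without mouse 2, DESeq2 called 7 of the 13 genes higher and 2 lower. Over all genes that fit called 337 higher and 264 lower, against 203 and 116 with all 7 libraries. The disease-associated microglia genes did not share a direction: of 13 listed 11 were tested, 5 had a positive log2 fold change, the median was -0.0018, and 0 did not overlap and were higher where 2 were lower. The lower of these by log2 fold change was Trem2, a lipid-sensing receptor of microglia, at 8.77, 7.52, 9.73 and 9.69 CPM with MPTP and 11.5, 11.4 and 10.8 CPM with Saline, called by neither tool (log2 fold change of -0.33 with an SE of 0.119, adjusted p = 0.4102 by edgeR and 0.393 by DESeq2). edgeR called 0 of the list (2 at an unadjusted p under 0.05). DESeq2 called Cd68, a lysosomal protein of phagocytes, higher, which had 7.28, 4.16, 8.24 and 7.89 CPM with MPTP and 3.82, 4.22 and 3.89 CPM with Saline with overlap, and this call was kept only without MPTP mouse 2, with adjusted p up to 0.288. The lipase gene Lpl of that list had 5.49, 8.03, 4.12 and 427 CPM with MPTP and 16.1, 4.47 and 6.801 CPM with Saline, with its level in mouse 4 beside the heart muscle RNA, and its log2 fold change of 3.61 was -0.63 without that mouse. Border macrophage, neutrophil and T and B cell genes had 0 calls by edgeR or DESeq2 and 0 with an unadjusted p under 0.05 among their 7, 2 and 3 tested genes.

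Genes of dopaminergic neurons, the target of MPTP, did not separate the groups in Cre+ mice. Of 17 tested genes 0 were called by edgeR or DESeq2, 2 had an unadjusted p under 0.05, all 17 overlapped, and the median log2 fold change was -0.06. Th, the rate-limiting enzyme of dopamine synthesis, had 44.9, 46.6, 34.1 and 32.6 CPM with MPTP and 43.1, 44.3 and 36.02 CPM with Saline. The Saline range lay within the MPTP range (log2 fold change of -0.06 with an SE of 0.137, adjusted p = 0.9205 by edgeR), and the sign of the fold change turned with the libraries used (0.04 without MPTP mouse 4). Slc6a3, the dopamine transporter through which the toxin enters, had 51.7, 67.6, 43.1 and 47.5 CPM with MPTP and 57.6, 48.98 and 46.8 CPM with Saline, also with overlap. The summed CPM of the list ran from 672 to 846 in the MPTP and from 763 to 783 in the Saline libraries. Cre- mice showed no clear fall of this list either, with a median log2 fold change of -0.08 (-0.098 without Cre- MPTP mouse 1). On the scale of all 13 libraries, their Th was at 48.0, 39.7 and 51.4 CPM with MPTP and 40.5, 36.05 and 53.6 CPM with Saline. Neuron genes (12 tested, 5 at an unadjusted p under 0.05, as were 1814 of all 18502 genes), serotonergic neuron genes (7, 1) and mitochondrial complex I genes (19, 0) had 0 calls by edgeR or DESeq2 too. Without MPTP mouse 2, DESeq2 called 4 of the 12 neuron genes lower, where it called 264 lower over all genes. Mitochondrially encoded transcripts made up 61900 CPM in MPTP mouse 4, with the muscle RNA, against 38820 to 44160 in the other 6 libraries.

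NRF2 antioxidant genes (14 tested, 3 at an unadjusted p under 0.05) and circadian clock genes (15, 3) had 0 calls by edgeR or DESeq2. Of 17 genes of the heat shock and unfolded protein response, DESeq2 called Xbp1 and Sdf2l1 higher and Atf3 lower, and edgeR called 0 (7 at an unadjusted p under 0.05). Xbp1, a transcription factor of the unfolded protein response, had 85.2, 84.8, 84.5 and 88.9 CPM with MPTP and 72.5, 67.2 and 70.1 CPM with Saline, without overlap, and its DESeq2 call was lost without Saline mouse 2 or 3 (adjusted p up to 0.0926). The call of Sdf2l1, a chaperone cofactor of the endoplasmic reticulum, was kept only without MPTP mouse 2 (adjusted p up to 0.2197), while that of Atf3 held with any 1 library left out. Of 15 tested cell cycle genes 3 did not overlap and were higher, and DESeq2 called Mcm3 and Mcm5, of the helicase that opens replication origins, where edgeR called 0 (5 at an unadjusted p under 0.05). Mcm3 had 5.94, 4.897, 8.42 and 5.43 CPM with MPTP and 3.21, 3.105 and 3.03 CPM with Saline, with MPTP mouse 3 highest (log2 fold change of 0.99 with an SE of 0.202, adjusted p = 0.125 by edgeR and 0.00182 by DESeq2), and its DESeq2 call was lost without Saline mouse 3 (adjusted p = 0.0631). The call of Mcm5, which had 7.17, 3.59, 7.56 and 7.74 CPM with MPTP and 3.74, 3.69 and 3.54 CPM with Saline with overlap, was kept only without MPTP mouse 2, with adjusted p up to 0.321.

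To relate these changes to mice that keep Ripk3 in astrocytes, they were set beside the response of the Cre- mice, which shares no library with that of the Cre+ mice. One Cre- MPTP library stood apart: mouse 1 had 11489150 counts and 21101 genes detected, the fewest of the 13 libraries, and a chi-square of its counts per degree of freedom of 315 and 316 against mice 2 and 3, which differed from each other by 10.8. Of the 203 genes that DESeq2 called higher in Cre+ mice, 190 (93.6%) had a positive log2 fold change in Cre- mice, where 52.2% of all genes did. Of the 116 called lower, 87 (75.0%) were negative in Cre- mice, where 47.8% of all genes were. Without Cre- MPTP mouse 1 these were 196 (96.6%) and 104 (89.7%). All 14 genes that rose by edgeR's test were positive in Cre- mice, with or without that mouse. Klf4, which fell in Cre+ mice, was at 0.74 in Cre- mice and at -0.047 without Cre- MPTP mouse 1. In the 3 interferon and class I lists the median log2 fold change was 1.41 in Cre- and 0.89 in Cre+ mice. The acute-phase list had 4.22 and 0.67, and the glucocorticoid-induced list 2.62 and 0.66, while oligodendrocyte genes had -0.88 and -0.37. Without Cre- MPTP mouse 1 the Cre- medians of these 4 were 1.61, 3.41, 2.23 and -0.73.

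Per library, relative to the Saline mean of the genotype, the acute-phase list stood at 4.05, 3.26 and 3.32 (log2) in Cre- MPTP mice 1 to 3, above each Cre+ MPTP mouse. For the type I interferon-stimulated genes the Cre- MPTP mice stood at 0.49, 1.3 and 1.35, against 0.75, 0.51, 1.17 and 0.79 in Cre+ MPTP mice 1 to 4. The low end of the Cre- range was mouse 1 alone, and Cre- MPTP mice 2 and 3 lay above all 4 Cre+ MPTP mice. The GTPases stood at 0.70, 2.00 and 1.26 in Cre- MPTP mice and at 0.77, 1.09, 0.96 and 0.85 in Cre+ MPTP mice, again with only Cre- MPTP mouse 1 below any Cre+ MPTP mouse. The homeostatic microglia list was at -1.38, -1.16 and -0.52 in the Cre- MPTP and at 0.38, -0.14, 0.36 and 0.15 in the Cre+ MPTP mice, without overlap.

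**Figure D5:**
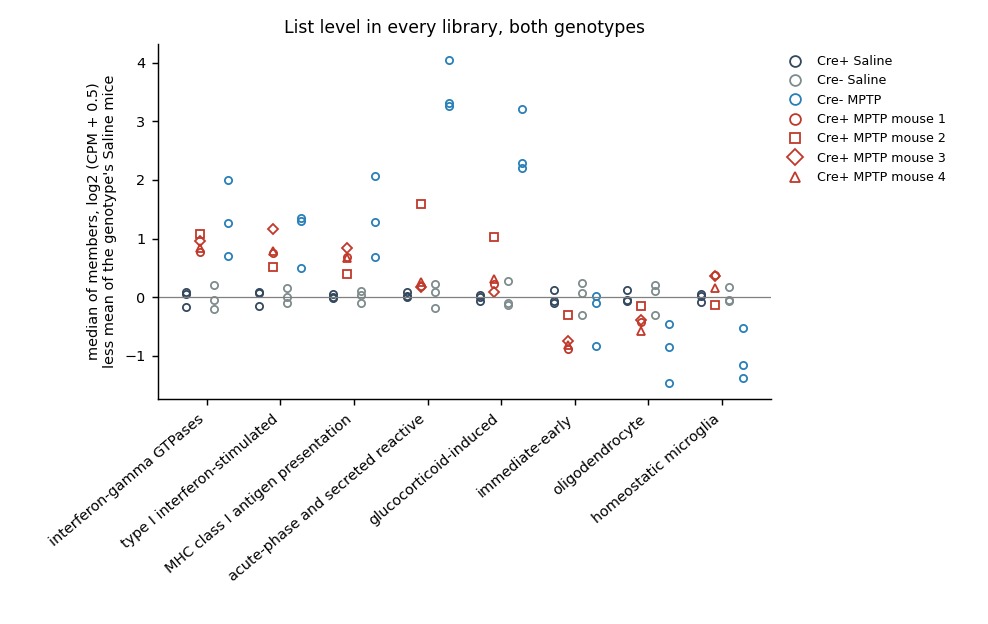
Median level of 8 gene lists in each of the 13 libraries, as log2 (CPM + 0.5) less the mean of the Saline mice of the same genotype, with Cre+ MPTP mice in red with a symbol per mouse, Cre- MPTP mice in light blue and Saline mice in dark blue (Cre+) and grey (Cre-). In the GTPase and interferon lists Cre- MPTP mice 2 and 3 lie above every Cre+ MPTP mouse and Cre- MPTP mouse 1 below every one, and the genotypes are apart in the acute-phase, glucocorticoid and microglia lists, where Cre+ MPTP mouse 2 lies nearest to the Cre- MPTP mice.

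The difference between the responses was tested as the interaction of genotype and treatment over 13 libraries. edgeR called 2 of 19360 genes (0.0103%), with 1116 at an unadjusted p under 0.05, and DESeq2 called 223 of 18802 (1.19%). Among the 76 genes of the interferon and class I lists, edgeR called 0, DESeq2 2, and 17 had an unadjusted p under 0.05 (5.76% of all genes did). DESeq2 called 8 of 14 acute-phase, 11 of 18 glucocorticoid-induced and 6 of 13 homeostatic microglia genes. Without Cre- MPTP mouse 1, edgeR called 3 of the 76 and DESeq2 8, and 34 had an unadjusted p under 0.05 (12.4% of all genes did), while DESeq2 called 7, 11 and 7 genes of those other lists. Over all genes, edgeR then called 199 of 19311 (1.03%) and DESeq2 522 of 17639 (2.96%). P2ry12, on the scale of all 13 libraries, had 2.49, 3.41 and 3.56 CPM in Cre- MPTP and 25.9, 22.1 and 18.5 CPM in Cre- Saline mice, a much larger difference than in Cre+ mice (difference of 2.25 between the log2 responses with an SE of 0.258, adjusted p = 0.02402 by edgeR). Edn3, an endothelin, had 1.301, 1.07 and 0.891 CPM in Cre- MPTP and 5.83, 5.66 and 8.11 CPM in Cre- Saline mice. In the Cre+ MPTP mice it had 5.06, 3.69, 4.303 and 4.27 CPM and in the Cre+ Saline mice 4.85, 4.597 and 5.41 CPM, with overlap (difference of 2.43 between the log2 responses with an SE of 0.3099, adjusted p = 0.0381 by edgeR). edgeR's count ran from 0 to 199 with single libraries left out: it was 0 without any 1 of 9 libraries (803 to 2404 genes at an unadjusted p under 0.05), 58 without Cre+ MPTP mouse 2 and 199 without Cre- MPTP mouse 1.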

How the data were processed

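Per the study's methods, the authors trimmed reads with Trimmomatic 0.36, aligned them to GRCm38 with STAR 2.5.2b and deposited featureCounts (Subread 1.5.2) gene counts. Per the labels, the libraries were made with a stranded total RNA kit. The strand setting of the counting is not given in the sources used here. The deposited counts of 49315 genes were fitted for the 7 Cre+ libraries with edgeR 4.0.16 (TMM factors, quasi-likelihood test, Benjamini-Hochberg adjusted p under 0.05), keeping genes with at least 10 counts in 3 libraries. DESeq2 1.42.0, the study's tool, and limma voom 3.58.1 (R 4.3.3) served as alternatives. The interaction used all 13 libraries, and the other alternatives were other filters and scalings, all 13 libraries and libraries left out. The fits were tested on simulated data.

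The 45 gene lists (554 genes), the members and the tests were chosen with earlier results of these data known. Named genes are Ripk3, the 10 largest changes in each direction among called genes whose groups do not overlap and whose mean CPM is at least 1 in the higher group (edgeR's calls first, then DESeq2's), the 10 smallest p of edgeR, and per list the members with the smallest p and its defining gene. P-values measure the spread between these mice only. The replicate numbers of the labels do not pair the mice. Some genes of the lists are not reported here by name.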

Additional observations from a re-analysis of the deposited data

Results flagged for a closer look

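In groups of 4 mice, a library was singled out where its gap to the nearest other exceeded Dixon's critical share of the range for 4 samples, which chance alone gives in about 1 in 20 groups. Of 94 named genes and 23 cell type lists examined, 13 genes and 4 lists were flagged, so some flags may be due to chance. In Cre+ MPTP mouse 2 this held for Lcn2 (156 CPM), Saa3 (67.9 CPM), Serpina3n (173.5 CPM), Gfap (666 CPM) and Cdkn1a (70.1 CPM), each at the top of the group. The same mouse was highest in Gpr34 (6.32 CPM) and lowest in C1qa (40.2 CPM), Ly6a (34.4 CPM) and Mcm5 (3.59 CPM). Cre+ MPTP mouse 3 was highest in Aldh1l1 (113 CPM), and mouse 4 in Atf3 (1.95 CPM) and Xbp1 (88.9 CPM). Mouse 4 also had the highest summed CPM of heart muscle (8392), skeletal muscle (224), erythrocyte (89.5) and disease-associated microglia genes (3371), the last with Lpl at 427 CPM.

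The response to MPTP differed between Cre+ and Cre- mice in edgeR's interaction test for Edn3 (2.43 on the log2 scale) and P2ry12 (2.25 on the log2 scale), both less reduced in the Cre+ mice.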

How the results depend on the processing

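Between 4 and 3 mice, edgeR's count of calls was set by few libraries. Most named genes kept their direction. For many of them this was largely fixed in advance, as they were picked for groups that do not overlap or for a small p. The count of genes higher and lower, 14 and 1 with edgeR on the 7 libraries, was 203 and 116 with DESeq2, 97 and 83 with limma voom, 0 and 0 with edgeR on all 13 libraries (672 at an unadjusted p under 0.05), 75 and 8 with DESeq2 on all 13, 70 and 32 with no filter, 27 and 4 with a filter of 50 counts, 29 and 3 without muscle and pituitary genes, and 0 and 0 on 13 libraries less Cre+ Saline mice 1 and 3 (206 at an unadjusted p under 0.05). It was 4 and 1 without Cre+ MPTP mouse 4 and Cre+ Saline mouse 1, and 3 and 1 without Cre+ MPTP mouse 4 and Cre+ Saline mouse 3. Leaving out single libraries gave 0 to 153 higher and 0 to 95 lower with edgeR. Added after seeing the data, DESeq2 gave 130, 337, 176 and 140 higher and 49, 264, 89 and 70 lower without MPTP mouse 1, 2, 3 and 4, and 149, 111 and 92 higher and 82, 67 and 25 lower without Saline mouse 1, 2 and 3. It gave 98 and 60 or 64 and 10 without those pairs of libraries, and edgeR 217 and 180 without Cre+ MPTP mice 2 and 4. Non-overlapping genes numbered 1226 to 1822 higher and 1200 to 1996 lower with single libraries left out. The interaction count of 2 was 223 with DESeq2, 1 with its size factors, 689 with limma voom, 522 with DESeq2 without Cre- MPTP mouse 1 (added after seeing the data) and 0 to 199 with single libraries left out.

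Same-numbered mice did not deviate together (r = -0.143, -0.015 and -0.024), and a replicate block on these unpaired numbers gave 26 and 9 calls and an interaction count of 0.

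Of the values of named genes under all settings, 1880 kept their direction and side of the threshold, 643 newly passed it, 129 no longer did and 30 changed sign. These counts do not measure how firm the directions are, as many of the genes were picked by their values. Cdkn1a was -0.031 without Cre+ MPTP mice 2 and 4. Gfap was -0.27 without these mice, -0.14 with limma voom, -0.26 to 0.21 with edgeR without single libraries, and with DESeq2 -0.25, -0.027 and -0.12 without MPTP mouse 2, Saline mouse 1 and Saline mouse 2. Th was 0.0698 with edgeR and 0.0693 with DESeq2 without MPTP mouse 4 and Saline mouse 1, 0.018 with the replicate block, up to 0.036 with edgeR without single libraries, and with DESeq2 0.0141, 0.033 and 0.00586 without MPTP mouse 3, MPTP mouse 4 and Saline mouse 2. Slc6a3 was -0.097 without MPTP mice 2 and 4, -0.11 to 0.13 with edgeR without single libraries, and with DESeq2 -0.1014 and -0.0197 without MPTP mouse 2 and Saline mouse 3. Lpl was -0.91 without MPTP mice 2 and 4, -0.81 with edgeR and -0.803 with DESeq2 without MPTP mouse 4 and Saline mouse 3, -0.57 with the replicate block, -0.63 to 4.303 with edgeR without single libraries and -0.627 with DESeq2 without MPTP mouse 4. On 13 libraries less Cre+ Saline mice 1 and 3, Ciita was -0.034 and Prl 0.0504. The cause was not tested.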

Other observations

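Ribosomal protein pseudogenes were high in Cre+ MPTP mouse 2 alone among the Cre+ libraries, with 58.5 CPM of Rps19-ps6, 59.4 CPM of Gm8730, 42.6 CPM of Gm14150 and 16.7 CPM of Gm5835. In Cre- MPTP mice 1 and 2, Gm8730 had 12.03 and 13.51 CPM and Rps19-ps6 10.3 and 12.2 CPM. Ttr, the transthyretin gene of the choroid plexus, was highest in Cre+ MPTP mouse 1 at 57.5, 1.71, 3.53 and 6.29 CPM in Cre+ MPTP mice 1 to 4, against 2.61, 1.41 and 4.28 CPM in the Cre+ Saline mice.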
